A study of Homo sapiens with 32 samples.

Results

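The genes described here encode the proteasome: the core particle, its regulatory particles, its activators and its assembly factors. They were the rows of the count table with a PSMA, PSMB, PSMC, PSMD, PSME, PSMF or PSMG symbol and at least 100 counts over all 32 libraries. The rule took 46 genes from 48 with such a symbol and from 60332 rows in all. The lowest total inside the limit was 4664 counts, of PSMB9, and the 2 genes outside it were PSMB11, the thymus subunit, with 11 counts, and PSMA8, the testis subunit, with 3 counts. The set held 7 alpha ring subunits, 7 constitutive beta subunits, 3 inducible beta subunits, 6 ATPases of the base, 14 other subunits or assembly factors of the regulatory particle, 4 activator genes, 1 inhibitor and 4 chaperones of the core. All 46 passed the filter on low counts in each of the 3 parts of the series, so no member was left untested.

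The proteasome is the barrel-shaped protease that degrades ubiquitin-tagged proteins. Its core is built of rings of alpha subunits, which form the gate, and rings of beta subunits, of which PSMB6, PSMB7 and PSMB5 carry the caspase-like, trypsin-like and chymotrypsin-like cutting sites. In cells exposed to interferon, PSMB9, PSMB10 and PSMB8 are built into new cores in their place, which gives the immunoproteasome and favours peptides that bind MHC class I. PSME1 and PSME2 form PA28, an activator cap that is also induced by interferon. cGAS senses DNA in the cytosol and signals through STING to interferon genes.

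RNA-seq of poly-A selected RNA was done in 2 human lines, MCF10A, a line from breast epithelium, and hTERT RPE-1, a retinal pigment epithelium line immortalised with telomerase. Part 1 held MCF10A cells with knockout (KO) of cGAS, STING or XRCC4 at 5 days after 10 Gy, WT cells given a CDK1 inhibitor (CDK1i) and collected 5 days after 10 Gy, WT cells left untreated, and WT cells with DMSO at 3 and 5 days after 10 Gy. Part 2 held MCF10A cells at 3 days after 10 Gy: cells without both XRCC4 and p53 (DKO) with and without an ATR inhibitor (ATRi), XRCC4 KO cells with and without ATRi, p53 KO cells and WT cells. Part 3 held RPE-1 cells at 3 days after 10 Gy with ATRi: p53 KO cells, cells labelled WT cGAS, and WT cells. Each of the 16 groups had 2 libraries. XRCC4 is a ligation factor of non-homologous end joining, and ATR is a kinase of the DNA damage checkpoint. Every group but the untreated one was irradiated, so no knockout was measured without radiation, and every RPE-1 group carried ATRi. The knockouts came from lentiviral Cas9 and guides followed by growth from single cells, so a comparison of a knockout with WT sets a clonal line against its parent, and the clone cannot be told apart from the lost gene. Drugs were added 1 h before irradiation.

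Total counts ran from 5590061 to 18585999 per library. The labels do not say that the 2 libraries of a group were separate cultures, so p-values reflect scatter between libraries, which could be technical. Each fit took the spread from all libraries of its part, not from the 2 groups compared alone. In part 1 replicate libraries differed by a chi-square of 21.5 to 45.1 per gene in the 4 WT groups and 27.6 in STING KO. In all other groups of the series this was 1.55 to 3.38. Of these, cGAS KO (2.95) and XRCC4 KO at 5 days (3.38) share the part 1 fit, so p-values of WT comparisons there also draw on these tighter groups. MB21D1, the gene of cGAS, had 20 and 15 counts in cGAS KO against 251 and 254 in WT at 5 days, and TMEM173, the gene of STING, had 127 and 103 counts in STING KO against 1214 and 894 in WT. XRCC4 had 88 and 66 counts in the knockout against 140 and 125 in WT at 5 days, and 134 and 119 against 102 and 122 at 3 days; a small edit need not change the mRNA level, so this checks nothing. In RPE-1, MB21D1 had 6199 and 6158 counts in WT cGAS, 8 and 6 in p53 KO, and 2 and 100 in WT, so WT replicate 2 held far more cGAS reads than replicate 1. Of 9 immune cell markers, 8 stayed at or below 0.984 CPM in every library, and ITGAM reached 5.97 CPM in MCF10A and 1.91 CPM in RPE-1; CD3D, CD3E and MS4A1 were at 0 in RPE-1 and at most 0.371 CPM in MCF10A. Their sum lay between 0.506 and 3.93 CPM in part 1, 0.953 and 6.25 CPM in part 2 and 0.825 and 3.32 CPM in part 3. The markers KRT5, KRT14, KRT17 and TP63 of basal epithelium, and CDH1 and EPCAM of epithelium in general, are called basal markers below. They were at 4.88 CPM or below in RPE-1, while KRT5 was at 2284 CPM or above in MCF10A. VIM was at 4107 CPM or above in RPE-1, against at most 1086 CPM in MCF10A.

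The promoters of the inducible genes are shown because PSMB8, PSMB9, PSME1 and PSME2 were called in the same direction in most comparisons. PSMB10 was called with them in cGAS KO, with ATRi in the DKO and in RPE-1 WT cGAS. Sequences are RefSeq windows on GRCh38.p14 from 250 bases before to 50 after an annotated start, and 40 of the 46 members had such a window (PSMA7, PSMB1, PSMB6, PSMB7, PSMD4 and PSMG3 had none). Both strands were searched for the core of the interferon-stimulated response element (ISRE), GAAANNGAA, and for the gamma-activated sequence (GAS), TTCNNNGAA. The ISRE core was present in 4 of the 5 windows of the inducible catalytic and PA28 genes, in 4 of 35 other members (PSMA4, PSMB4, PSMC2 and PSMG4) and in 9.86% of all 27305 genes in the table. The lines give 130 bases from -110 to +20 of the start, with ISRE cores and GAS in capitals, in lower case otherwise. They lie at chr6:32844028-32844157 (minus strand), chr16:67936831-67936960 (minus), chr14:24136084-24136213 (plus), chr14:24146591-24146720 (minus) and chr6:32854082-32854211 (plus).
PSMB8: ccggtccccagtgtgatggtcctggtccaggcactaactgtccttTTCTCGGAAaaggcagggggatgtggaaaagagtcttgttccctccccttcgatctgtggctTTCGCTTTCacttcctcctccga
PSMB10: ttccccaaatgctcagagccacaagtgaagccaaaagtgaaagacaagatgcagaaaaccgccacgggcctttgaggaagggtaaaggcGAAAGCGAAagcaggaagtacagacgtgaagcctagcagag
PSME1: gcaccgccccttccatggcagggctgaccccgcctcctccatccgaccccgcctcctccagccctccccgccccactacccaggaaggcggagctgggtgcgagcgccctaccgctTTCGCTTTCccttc
PSME2: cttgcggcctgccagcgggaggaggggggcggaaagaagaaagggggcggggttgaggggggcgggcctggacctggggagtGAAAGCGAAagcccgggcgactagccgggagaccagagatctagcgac
PSMB9: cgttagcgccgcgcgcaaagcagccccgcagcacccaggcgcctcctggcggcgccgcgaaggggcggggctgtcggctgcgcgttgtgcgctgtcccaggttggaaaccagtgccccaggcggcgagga
The letters TTCGCTTTC, the ISRE core GAAAGCGAA read on the other strand, stand in PSMB8 and PSME1, and GAAAGCGAA itself stands in PSMB10 and PSME2, all within 28 bases of the start. PSMB8 also holds the GAS TTCTCGGAA; its second annotated start has neither motif. The PSMB9 window has neither, but PSMB9 and TAP1, the gene of a peptide transporter subunit, are read away from each other from starts 488 bases apart. The TAP1 window on the other side, shown from -170 to -41 (chr6:32853745-32853874, minus strand), holds overlapping ISRE cores.
TAP1: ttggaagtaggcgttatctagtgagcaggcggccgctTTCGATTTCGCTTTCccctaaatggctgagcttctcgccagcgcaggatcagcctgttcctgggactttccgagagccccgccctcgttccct
A GAS was found in 1 of 5 inducible windows, in 6 of 35 other members and in 9.38% of all genes. The core of the antioxidant response element, TGACNNNGC, the site type of the proteasome regulator NFE2L1, was found in 3 of 5, in 12 of 35 and in 16.1% of all genes, and CCAAT in 1 of 5, in 18 of 35 and in 39.7%. A match describes letters only, and the window without one says nothing about a factor's binding.

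On the hg19 intervals of the count table, PSMB8 and PSMB9 share chr6:32808494-32827362 with TAP1 and PSMB8-AS1, PSMB10 lies in chr16:67927175-67970990, PSME1 in chr14:24605367-24610797 and PSME2 in chr14:24612571-24636611. Whether the counting used strand is unstated. PSMB8-AS1, antisense to PSMB8, had 1575 counts over all libraries against 31055 for PSMB8, and reads of the overlap cannot be told apart without strand.

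Compared per length, in FPKM, the constitutive core was abundant and steady. The median over 32 libraries was 161 to 316 FPKM for the alpha subunits, 98.1 to 323 FPKM for the constitutive beta subunits and 46.8 to 136 FPKM for the base ATPases. The inducible beta subunits lay lower, at 49.9 FPKM for PSMB8, 38.8 FPKM for PSMB10 and 7.57 FPKM for PSMB9, while PSME2 (158 FPKM), PSME1 (129 FPKM) and PSME3 (137 FPKM), the nuclear PA28 gamma, were at the level of the core. PSME4, the activator PA200, had a median of 34.5 FPKM. The highest library exceeded the lowest 395-fold for PSMB9, 11.8-fold for PSMB8, 4.96-fold for PSME2 and 4.57-fold for PSME1. For the 41 other members this ratio was 1.58 to 4.24, with a median of 2.41, and PSMB10 had 2.38. The PSMB9 ratio rests on XRCC4 KO libraries with 2 and 1 counts.

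**Figure D1:**
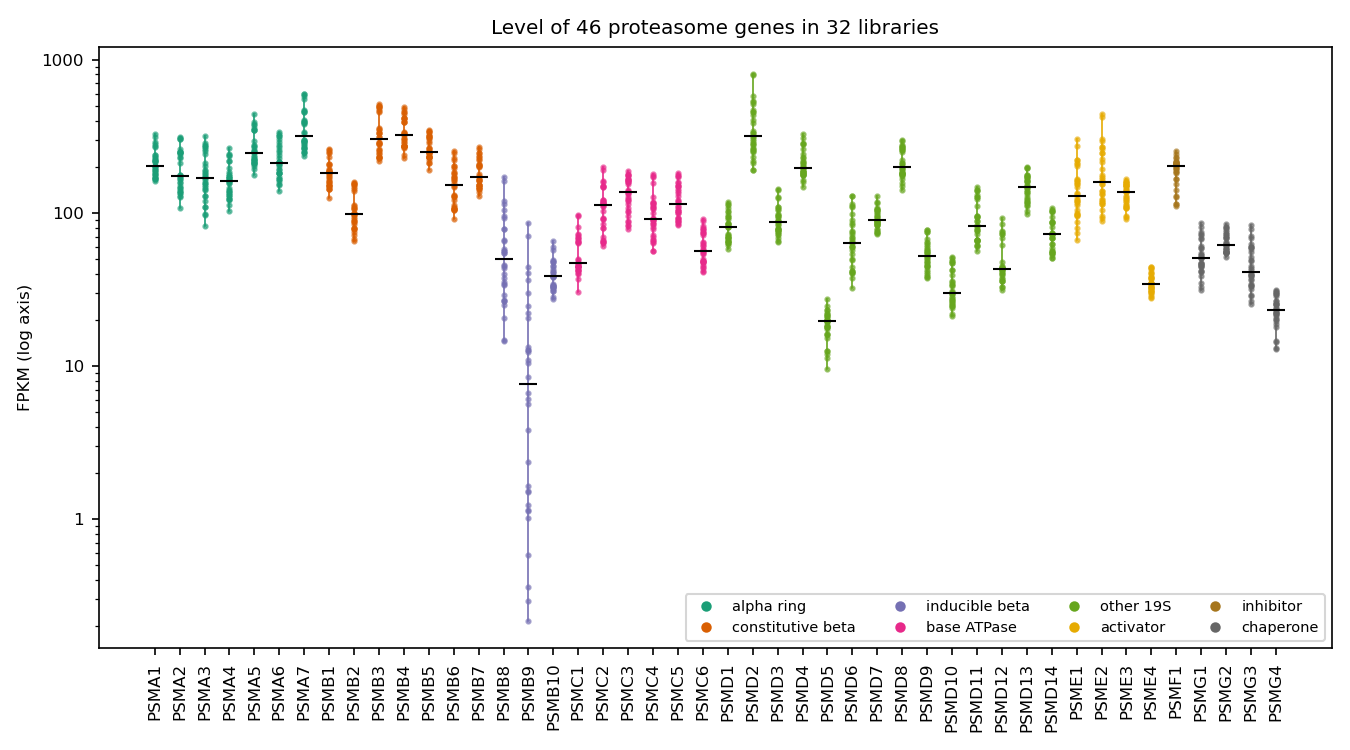
FPKM (log axis) of each of the 46 proteasome genes, grouped and coloured by role. Each point is 1 of 32 libraries, the line spans lowest to highest and the black dash is the median; PSMB9 spans 395-fold, and the 41 genes other than PSMB8, PSMB9, PSMB10, PSME1 and PSME2 span at most 4.24-fold.

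In WT MCF10A cells, 1 proteasome gene passed at day 3 after radiation, and at day 5 PSMB8 and PSME2 were called higher. The labels name DMSO for the irradiated cells and not for the untreated ones. Radiation thus cannot be told apart from DMSO or from time in culture here. PSMB9 had 5.34 and 3.34 CPM (counts scaled to library size with TMM factors) in untreated libraries, 3.44 and 2.23 at 3 days and 15.1 and 5.63 at 5 days. PSMB8 had 38.7 and 44.7, 46.7 and 45.8 and 103 and 58.8 CPM in the same order, and PSME2 had 63.1 and 74.2, 75.9 and 57.3 and 150.4 and 99.5 CPM. The 5 day libraries lay above the untreated ones for all 3 genes, but replicate 1 at 5 days was far above replicate 2. PSMB8 rose by 0.96 ± 0.21 (log2 fold change ± SE) at 5 days over untreated and PSME2 by 0.86 ± 0.19 (edgeR adjusted p = 0.00903 and 0.00833). PSMB9, at 1.22 ± 0.45, did not pass (adjusted p = 0.0603), nor did PSMB10 at 0.49 ± 0.23 or PSME1 at 0.23 ± 0.15. Without replicate 1 at 5 days PSMB8 was 0.497 (adjusted p = 0.0657) and PSME2 0.536 (adjusted p = 0.076), and both calls were also lost without untreated replicate 1 and in a fit of these 2 groups alone.

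Of 46 members, 6 rose and 1 fell at 5 days over untreated, against 15.1% and 14.3% of all genes tested, and on FPKM 2 rose and 1 fell, against 8.26% and 10%. The 3 called on FPKM were PSMB8, PSME2 and PSMG1. The other members that rose on counts were PSME3 (0.38 ± 0.12), PSME4 (0.39 ± 0.12), PSMD2, a scaffold subunit (0.53 ± 0.15), and PSMD10, an assembly factor also called gankyrin (0.59 ± 0.12). PSMG1, a chaperone of alpha ring assembly, fell (-0.71 ± 0.11) and had 27.8 and 29.9 CPM at 5 days against 45.7 and 48.5 CPM in untreated cells. In the fit of the 2 groups alone PSMG1 was the 1 member called, beside 4.48% of all genes higher and 2.63% lower. Without replicate 1 at 5 days fewer members were called, PSMG1 still among them, and fewer of all genes. The PSMD10 call was lost without that library, those of PSME3 and PSME4 without either 5 day library or untreated replicate 2, and that of PSMD2 on leaving out any of the 4. PSMD10 was also the 1 member that rose at 3 days over untreated (0.54 ± 0.12), with 0 falling, against 3.65% and 2.87% of all genes. It had 20.2 and 24.4 CPM untreated, 33.6 and 31.05 at 3 days and 36.2 and 30.8 at 5 days, but the 3 day call was lost without untreated replicate 1 or either 3 day library. Between 5 and 3 days 0 members passed in either direction, against 0.217% and 0.0461% of all genes. An unadjusted edgeR p below 0.05 was found for 8 of 46 members and for 2207 of the 15190 genes tested. DESeq2 called 2 members, against 1.95% and 0.889% of all genes. The fit with limma on FPKM called 0, against 0.415% and 0.145%. PSMB9 was at 1.76 ± 0.48 and PSME2 at 0.90 ± 0.19 in that comparison. Without replicate 2 at 5 days more members were called, all higher, and more of all genes were called too.

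With an inhibitor of CDK1, the kinase that drives entry into mitosis, 4 of the 5 inducible genes were called lower. PSMB9 had 0.374 and 0.689 CPM with CDK1i against 15.1 and 5.63 CPM with DMSO at 5 days, and PSMB8 had 26.7 and 27.6 against 103 and 58.8 CPM. For the 5 inducible genes the groups did not overlap. With 2 libraries a group such a split cannot go below p = 0.333 in an exact permutation test. The share of all genes with such a split was not counted in any comparison. PSMB9 (-4.27 ± 0.60), PSMB8 (-1.58 ± 0.22), PSME1 (-0.90 ± 0.15) and PSME2 (-0.78 ± 0.19) fell, with edgeR adjusted p of 0.00364, 0.00386, 0.00709 and 0.0261; PSMB10 was at -0.70 ± 0.23. Among all 46, 2 rose and 4 fell, against 4.73% and 7.37% of all genes. The 2 that rose were PSMG1 (0.49 ± 0.11) and PSMD1, a scaffold subunit (0.37 ± 0.11), and 39 of the 41 other members did not pass. On FPKM 1 rose and 3 fell, against 1.05% and 2.97%, and the calls of PSME2 (adjusted p = 0.0672) and PSMG1 (adjusted p = 0.0655) were lost there. The fit of these 2 groups alone called 0 members and 0% of all genes in either direction, so its 0 is not particular to the proteasome. Without DMSO replicate 1 or without CDK1i replicate 2 fewer members, and fewer of all genes, were called. The PSMB9 and PSMB8 calls held whichever of the 4 libraries was left out; PSME1 was lost without CDK1i replicate 2 (adjusted p = 0.0523), and PSME2 without DMSO replicate 1 (log2 change of -0.451) or either CDK1i library. PSMG1 was lost without either DMSO library or CDK1i replicate 2, and PSMD1 on leaving out any of the 4.

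The loss of cGAS, STING or XRCC4 was set against the same 2 WT libraries at 5 days, so the 3 comparisons share it and are given side by side; the labels name DMSO for WT and not for the knockouts. PSMB9 had 1.05 and 0.866 CPM in cGAS KO, 1.18 and 0.267 in STING KO and 0.173 and 0.0964 in XRCC4 KO, against 15.1 and 5.63 CPM in WT. PSMB8 had 32.5 and 30.7, 30.8 and 24.4 and 18.3 and 18.9 CPM in the same lines, against 103 and 58.8 CPM in WT. Every knockout library lay below both WT libraries for PSMB9 and PSMB8, and below both untreated libraries. PSMB9 fell in cGAS KO (-3.39 ± 0.55) and STING KO (-3.77 ± 0.59) (edgeR adjusted p = 0.00336 and 0.00263). In XRCC4 KO it had 2 and 1 counts against 220 and 95 in WT, so its ratio is given from summed counts: 73.2-fold lower, with a 95% Clopper-Pearson interval of 24.8 to 357 that covers counting error only. PSMB8 fell in cGAS KO (-1.36 ± 0.22), STING KO (-1.55 ± 0.22) and XRCC4 KO (-2.12 ± 0.23). The 6 basal markers were detected in every MCF10A library. Their summed level was 15487 and 14826 CPM in cGAS KO, 16462 and 21271 in STING KO and 16073 and 15282 in XRCC4 KO, against 9247 and 7357 CPM in WT. EPCAM went the other way, at 6.11 and 7.84 FPKM in cGAS KO, 7.09 and 4.54 in STING KO and 2.31 and 2.1 in XRCC4 KO, against 18.9 and 10.7 in WT. TP63 was lower in XRCC4 KO, at 16.7 and 18.2 FPKM against 25.2 and 26.1 in WT. The part of these markers in the proteasome differences was not tested. These are bulk samples, in which fewer cells with a transcript and less of it per cell cannot be told apart.

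PA28 moved with them. PSME1 had 90.6 and 90.05 CPM in cGAS KO, 84.5 and 73.6 in STING KO and 75.3 and 71.5 in XRCC4 KO, against 177 and 130.1 CPM in WT, and PSME2 had 73.6 and 71.7, 67.97 and 56.4 and 62.9 and 65.01 CPM, against 150.4 and 99.5 CPM in WT. In the same order PSME1 fell (-0.77 ± 0.15, -0.96 ± 0.15 and -1.07 ± 0.15), and so did PSME2 (-0.78 ± 0.19, -1.01 ± 0.19 and -0.97 ± 0.19). Of the 3 lines PSMB10 passed in cGAS KO, at -0.93 ± 0.23 (edgeR adjusted p = 0.0259), and was at -0.75 ± 0.23 in STING KO (adjusted p = 0.0532) and -0.61 ± 0.23 in XRCC4 KO; differences between the lines were not tested. In cGAS KO the calls of PSMB10, PSME1 and PSME2 were lost without WT replicate 1 (log2 changes of -0.484, -0.527 and -0.453) or either cGAS KO library, and that of PSMB9 without cGAS KO replicate 1 (adjusted p = 0.0505). In STING KO and XRCC4 KO the call of PSME2 alone among the 5 was lost on leaving out a library, STING KO replicate 2 (adjusted p = 0.0577) or XRCC4 KO replicate 1 (adjusted p = 0.0533).

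**Figure D2:**
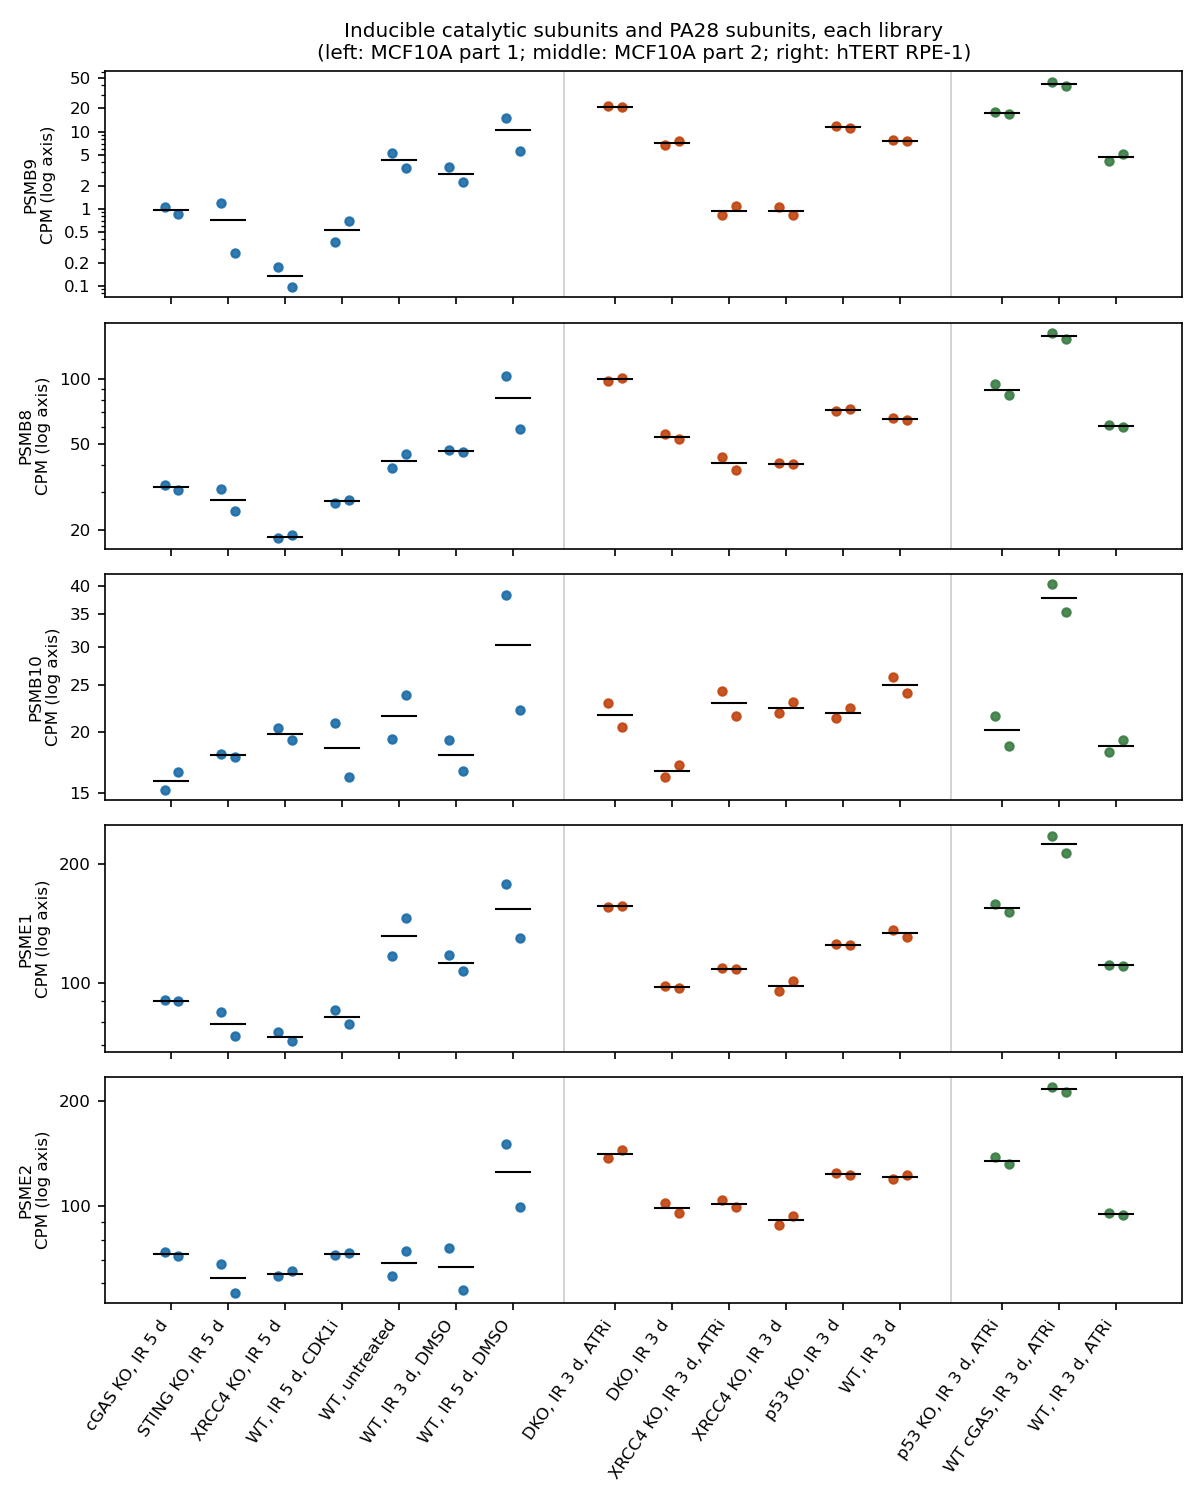
CPM (log axis) of PSMB9, PSMB8, PSMB10, PSME1 and PSME2 in each library (points) with the group mean (line), for part 1, part 2 and RPE-1. PSMB9 is at 1.18 CPM or below in all cGAS, STING and XRCC4 KO libraries and with CDK1i, and reaches 44.6 CPM in RPE-1 WT cGAS.

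On the count scale the constitutive genes that passed were mostly higher. In cGAS KO 9 of the 41 other members rose and 0 fell, in STING KO 8 rose and 0 fell, and in XRCC4 KO 13 rose and 1 fell. With the inducible genes the counts were 9 up and 5 down in cGAS KO, 8 and 4 in STING KO and 13 and 5 in XRCC4 KO. Among all genes 6.65% rose and 6.88% fell in cGAS KO, 7.43% and 7.73% in STING KO, and 12.4% and 12.4% in XRCC4 KO. PSMA1, an alpha subunit, the ATPases PSMC2, PSMC3, PSMC4, PSMC5 and PSMC6, and the lid subunits PSMD8 and PSMD13 were called higher in each of the 3 lines. PSMC3 rose by 0.73 ± 0.09 in cGAS KO, 0.88 ± 0.09 in STING KO and 0.76 ± 0.09 in XRCC4 KO. It had 154 and 148, 176 and 159 and 152 and 157 CPM in these lines against 87.3 and 94.8 CPM in WT. PSMA1 rose by 0.66 ± 0.09 and PSMD13 by 0.73 ± 0.11 in cGAS KO, and PSMC2 by 0.74 ± 0.11 and PSMD8 by 0.73 ± 0.09 in STING KO. The constitutive counterparts PSMB6 and PSMB7 passed in none of the 3, at 0.39, 0.34 and 0.26 for PSMB6. The 1 other member that fell, PSMD6, a lid subunit, did so in XRCC4 KO (-0.44 ± 0.12), and the XRCC4 KO calls of PSMD6, PSMB5 (0.39 ± 0.12) and PSME3 (0.47 ± 0.12) were lost on leaving out any of the 4 libraries. On leaving out 1 library fewer members were called in cGAS KO and in XRCC4 KO. Fewer of all genes were called as well, so this drop is not particular to the proteasome.

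The size of these rises depended on the scale. The deposited FPKM, tested with limma on log2(FPKM + 1), moved the median of all genes by -0.21 in XRCC4 KO at 5 days, -0.14 in XRCC4 KO at 3 days, 0.10 in p53 KO, 0.20 in the DKO, 0.13 with ATRi in the DKO, 0.34 between the DKO and XRCC4 KO under ATRi, 0.12 for the difference of ATRi effects, and 0.16 and 0.26 in RPE-1 WT cGAS and p53 KO; on the count scale this median stayed between -0.05 and 0.03. In XRCC4 KO at 5 days the FPKM fit called 2 members higher and 7 lower, against 2.97% and 11.8% of all genes. In cGAS KO it called 5 and 5, against 1.61% and 3.27%, and in STING KO 3 and 5, against 1.96% and 4.3%. The XRCC4 KO calls of PSMB5 (0.12), PSME3 (0.23) and PSMD13 (0.37) were lost on FPKM. Relative to the median of all genes, the median of the 41 other members was 0.23 on the count scale and 0.20 on the FPKM scale in XRCC4 KO, 0.18 and 0.20 in cGAS KO, and 0.23 and 0.20 in STING KO. That of the 5 inducible genes was -1.04 and -1.12, -0.91 and -0.78, and -0.99 and -1.0 in the same lines.

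In part 2, at 3 days, XRCC4 KO was again low in 4 of the 5 inducible genes. PSMB9 had 1.05 and 0.843 CPM in XRCC4 KO against 7.75 and 7.49 CPM in WT, PSMB8 40.7 and 40.2 against 65.9 and 64.7 CPM, and PSME1 95.8 and 101 against 136 and 131 CPM. The libraries of a group lay close together. PSMB9 (-2.99 ± 0.22), PSMB8 (-0.69 ± 0.06), PSME1 (-0.44 ± 0.05) and PSME2 (-0.42 ± 0.05) fell (edgeR adjusted p of 7.95e-12, 7.28e-10, 9.21e-09 and 1.27e-07), and PSMB10 was at -0.16 ± 0.09. Of all 46, 24 rose and 6 fell, against 28.6% and 27.5% of all genes; on FPKM 9 rose and 11 fell, against 12.1% and 28.9%. Basal markers also differed between these groups. KRT14 had 5003 and 4950.5 CPM in XRCC4 KO against 43.5 and 44.8 CPM in WT, EPCAM had 12.2 and 10.6 against 39.4 and 41.6 CPM, and the 6 markers summed to 17246 and 17155 against 4696 and 4814 CPM. Their part in the proteasome differences was not tested. PSMA1 rose by 0.87 ± 0.04, PSMC3 by 0.83 ± 0.05, PSMC4 by 0.72 ± 0.05 and PSMB7 by 0.48 ± 0.05, and PSMD6 fell (-0.61 ± 0.06). PSMD10 (-0.18 ± 0.07) lost its call without WT replicate 2 or XRCC4 KO replicate 1. PSMA1 had 288 and 285 CPM in XRCC4 KO against 155 and 158 CPM in WT. The 3 and 5 day comparisons of XRCC4 KO share no library. Both set an XRCC4 KO line against WT, so a clonal difference could recur in both. The matching overlap over all genes was not counted. Of the 13 members called higher at 5 days 11 were called higher at 3 days (84.6% of the 5 day list and 45.8% of the 24), and all 5 called lower at 5 days were among the 6 at 3 days (83.3%). These 5 were PSMB8, PSMB9, PSME1, PSME2 and PSMD6, and 0 members were called in opposite directions.

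In p53 KO cells 24 of the 41 constitutive and other members were called higher, and so was 1 of the 5 inducible genes. PSMB9 had 11.7 and 11.04 CPM in p53 KO against 7.75 and 7.49 CPM in WT, a rise of 0.58 ± 0.12 (edgeR adjusted p = 0.000149), while PSMB8 (0.13 ± 0.06), PSMB10 (-0.19 ± 0.08), PSME1 (-0.10 ± 0.04) and PSME2 (0.03 ± 0.05) did not pass. On FPKM 3 of the 5 passed, all higher, and 1 of the 5 turned its sign. Of the 41 other members 4 fell and 13 did not pass. In all 25 rose and 4 fell, against 25.9% and 27% of all genes, and on FPKM 31 rose and 0 fell, against 25.3% and 12.8%. KRT14 had 544 and 525 CPM in p53 KO against 43.5 and 44.8 CPM in WT, and EPCAM had 122 and 131 against 39.4 and 41.6 CPM. The 6 basal markers summed to 6104 and 5991 against 4696 and 4814 CPM. CDH1 did not rise with them, at 210 and 239 FPKM in p53 KO against 230 and 259 in WT. The part of these markers in the proteasome differences was not tested. PSMG1 rose by 0.65 ± 0.07, with 47.5 and 50.1 CPM in p53 KO against 29.6 and 32.5 CPM in WT. PSMC3 rose by 0.53 ± 0.05 and PSMC1, another base ATPase, by 0.52 ± 0.07. PSMA2 (-0.23 ± 0.05), PSMC2 (-0.16 ± 0.05), PSMB5 (-0.13 ± 0.04) and PSMD8 (-0.12 ± 0.04) fell on counts, and none of the 4 passed on FPKM. The PSMB5 call was lost without replicate 2 of WT or of p53 KO, and that of PSMD8 without either WT library or p53 KO replicate 2.

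In the DKO, PSMB9 and PSMB8 were higher than in XRCC4 KO. PSMB9 had 6.78 and 7.57 CPM in the DKO against 1.05 and 0.843 CPM in XRCC4 KO, and PSMB8 had 55.5 and 52.5 against 40.7 and 40.2 CPM. PSMB9 rose by 2.90 ± 0.22 and PSMB8 by 0.42 ± 0.06 (edgeR adjusted p = 8.38e-12 and 3.22e-06). PSMB10 fell, with 16.1 and 17.1 CPM in the DKO against 21.9 and 23.04 CPM in XRCC4 KO and a change of -0.43 ± 0.09. PSME1 was at -0.01 ± 0.05, and PSME2, at 0.12 ± 0.05 with an adjusted p of 0.0499, lost its call without XRCC4 KO replicate 1 or DKO replicate 1. Of all 46, 20 rose and 11 fell, against 32.2% and 32.7% of all genes, and on FPKM 31 rose and 3 fell, against 37.4% and 14.5%. The basal markers summed to 7795 and 7461 CPM in the DKO against 17246 and 17155 CPM in XRCC4 KO. EPCAM went the other way, at 55.3 and 55 FPKM in the DKO against 11.3 and 9.91 in XRCC4 KO. The part of these markers was not tested. Among the 41 other members, those that rose most were PSMD12, a lid subunit (0.53 ± 0.06), PSMA3 (0.49 ± 0.05) and PSMD2 (0.45 ± 0.04). PSMD13 (-0.54 ± 0.04), PSMA1 (-0.51 ± 0.04), PSMD5, a chaperone of the base (-0.28 ± 0.07), and PSME4 (-0.33 ± 0.04) fell on counts. On FPKM PSMD13 and PSMA1 kept their calls, and PSMD5 (-0.26, limma adjusted p = 0.104) and PSME4 (-0.09, adjusted p = 0.503) lost them. PSMB5, PSME3 and PSMF1, the inhibitor PI31, fell on counts (-0.28, -0.29 and -0.15) but lay at 0.00013, 0.0633 and 0.0358 on FPKM.

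With ATRi all 5 inducible genes were higher in the DKO, and 2 of the 5 passed in XRCC4 KO. The labels name no DMSO for the groups without ATRi, so ATRi cannot be told apart from its solvent. In the DKO PSMB9 had 21.3 and 20.96 CPM with ATRi against 6.78 and 7.57 CPM without it, PSMB8 had 97.8 and 101 against 55.5 and 52.5 CPM, and PSME1 had 156 and 157 against 98.2 and 97.4 CPM. PSMB9 rose by 1.56 ± 0.10, PSMB8 by 0.88 ± 0.05, PSME1 by 0.68 ± 0.04, PSME2 by 0.52 ± 0.05 and PSMB10 by 0.38 ± 0.09, the largest edgeR adjusted p being 0.000575. In XRCC4 KO PSMB9 had 0.827 and 1.07 CPM with ATRi against 1.05 and 0.843 CPM without it, and PSMB8 43.5 and 38.1 against 40.7 and 40.2 CPM; for both genes these groups overlapped. PSMB9 was at -0.01 ± 0.36, PSMB8 at 0.01 ± 0.07 and PSMB10 at 0.04 ± 0.09 there. PSME1 (0.14 ± 0.05) and PSME2 (0.16 ± 0.05) passed at adjusted p of 0.038 and 0.033. Without XRCC4 KO replicate 1 these were 0.10 and 0.12 with adjusted p of 0.328 and 0.286, leaving out either ATRi library also ended the call of PSME1, and leaving out ATRi replicate 1 that of PSME2. The effect in the DKO minus that in XRCC4 KO was 1.56 ± 0.39 for PSMB9, 0.87 ± 0.09 for PSMB8, 0.53 ± 0.06 for PSME1, 0.36 ± 0.07 for PSME2 and 0.35 ± 0.13 for PSMB10 (edgeR adjusted p = 0.00253, 2.13e-08, 3.99e-07, 0.000288 and 0.0333). The PSMB10 difference did not pass without XRCC4 KO replicate 2, XRCC4 KO ATRi replicate 2, DKO replicate 1 or DKO ATRi replicate 1 (0.310, 0.264, 0.304 and 0.269).

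Most other members fell with ATRi in the DKO on counts. Of the 41, 27 fell and 2 rose, and of all 46, 7 rose and 27 fell, against 26.1% and 32.4% of all genes. On FPKM 11 rose and 8 fell, against 27.2% and 12.5% of all genes. The basal markers summed to 5871 and 5998 CPM with ATRi against 7795 and 7461 CPM without it in the DKO, and to 18366 and 17276 against 17246 and 17155 CPM in XRCC4 KO. KRT17 went the other way in the DKO, at 1257 and 1322.8 FPKM with ATRi against 534 and 537 without it. The median of the 41 relative to all genes was -0.16 on counts and -0.13 on FPKM. PSMA7 (-0.50 ± 0.04), PSMD2 (-0.50 ± 0.04) and PSMG4, a core chaperone (-0.47 ± 0.08), fell most. PSMD2 had 501 and 506 CPM with ATRi against 724 and 698 CPM without it. PSMB5 (-0.32 ± 0.04), PSMB7 (-0.28 ± 0.05), PSME3 (-0.16 ± 0.04) and PSME4 (-0.37 ± 0.04) fell on counts and kept that sign but not the call on FPKM. PSMC4 (0.45 ± 0.04) and PSMA6 (0.15 ± 0.04) were the 2 that rose. In XRCC4 KO 3 members rose and 3 fell, against 6.67% and 10.3% of all genes, on FPKM 0 passed, against 2.09% and 2.77%, and with RLE size factors 1 rose and 4 fell, against 6.18% and 11%. PSME4 (-0.24 ± 0.04) and PSMD2 (-0.16 ± 0.04) fell, and the PSMD2 call was lost without XRCC4 KO replicate 2. PSMD6 (0.19 ± 0.06) and PSMG3, a core chaperone (-0.22 ± 0.07), passed, but the PSMD6 call was lost on leaving out any of the 4 libraries and that of PSMG3 without either XRCC4 KO library or ATRi replicate 2. Without XRCC4 KO replicate 1 fewer members, and fewer of all genes, were called. For the difference of the ATRi effects, 6 members were higher and 20 lower in the DKO, against 13% and 21% of all genes, and on FPKM 6 and 1, against 11.8% and 4.92%. The PSMB10 difference lost its call on FPKM (0.35, limma adjusted p = 0.076).

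**Figure D3:**
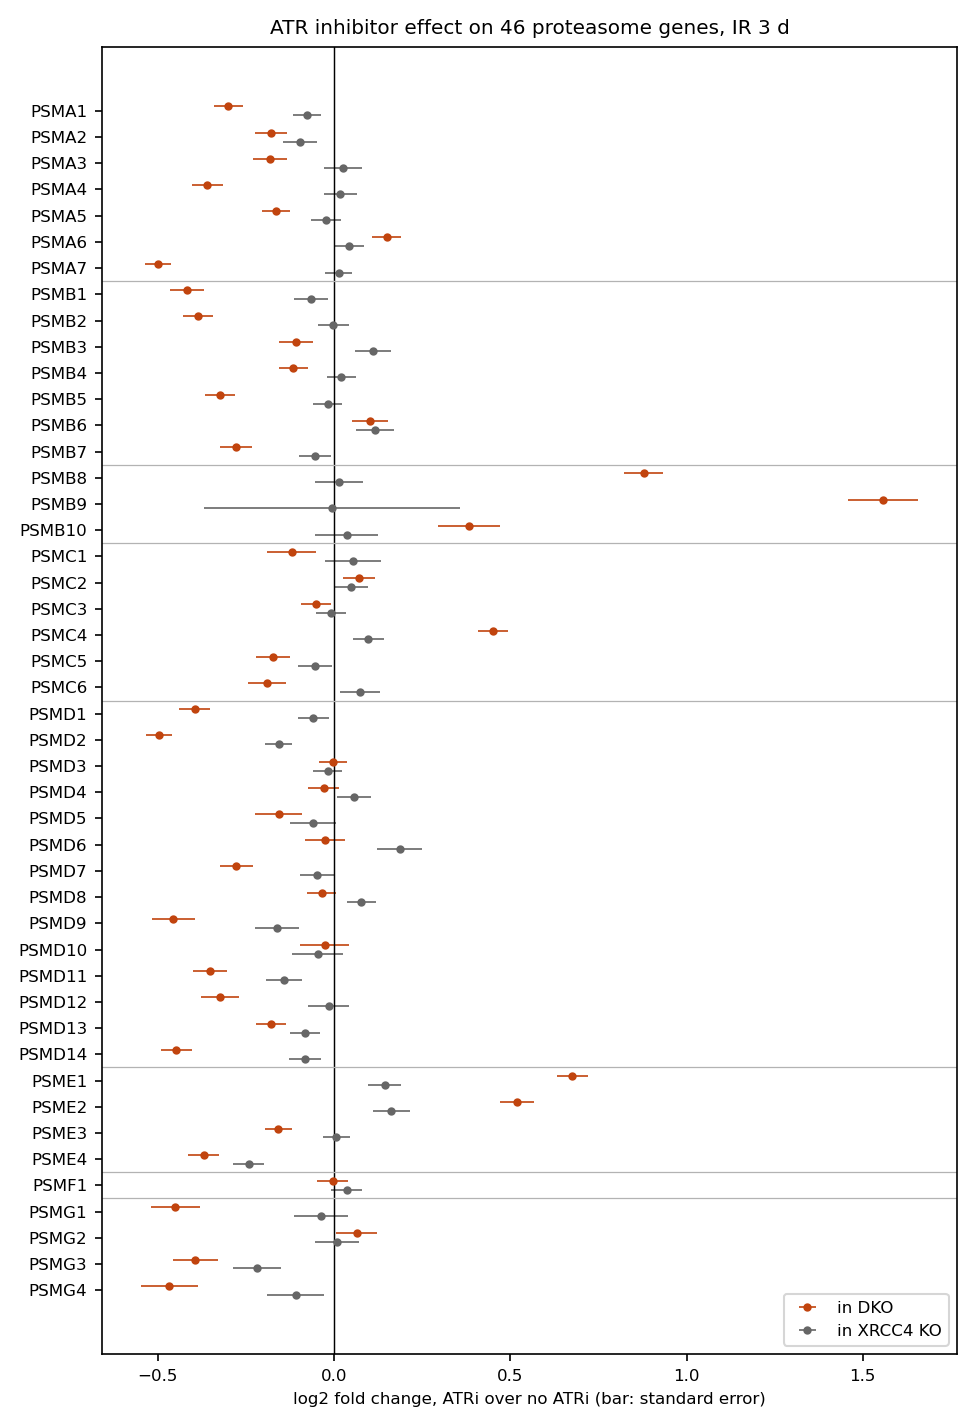
Log2 fold change with ATRi over no ATRi at 3 days for the 46 genes, in the DKO and in XRCC4 KO, with bars of 1 standard error. PSMB9 and PSMB8 stand at 1.56 and 0.88 in the DKO and at -0.01 and 0.01 in XRCC4 KO, while most constitutive genes lie below 0 in the DKO on this count scale.

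With ATRi in both, the DKO exceeded XRCC4 KO in 4 of the 5 inducible genes. PSMB9 had 21.3 and 20.96 CPM in the DKO against 0.827 and 1.07 CPM in XRCC4 KO, a rise of 4.47 ± 0.16, and PSMB8 rose by 1.28 ± 0.06, PSME1 by 0.52 ± 0.04 and PSME2 by 0.48 ± 0.05 (edgeR adjusted p = 1.98e-18, 2.17e-16, 7.9e-11 and 2.74e-09). PSMB10, with 22.9 and 20.5 CPM in the DKO against 24.4 and 21.6 CPM, was at -0.09 ± 0.08 and its groups overlapped. Of all 46, 13 rose and 19 fell, against 35.7% and 36.1% of all genes. On FPKM 35 rose and 4 fell, against 50.7% and 13.5% of all genes, and 9 of the 19 that fell on counts were called higher, so the direction of these 9 turned with the scale. PSMB5 (-0.58 ± 0.04) and PSMA1 (-0.73 ± 0.04) were lower on counts. PSMB7, PSME4 and PSMF1 lay at -0.32, -0.46 and -0.19 on counts and at 0.136, 0.0334 and 0.273 on FPKM. PSMD13 (-0.64 ± 0.04) and PSMG4 (-0.52 ± 0.08) were also lower on counts, and PSMC2 (0.29 ± 0.05) and PSMA3 (0.28 ± 0.05) higher. PSMD12 (0.22 ± 0.06) lost its call without XRCC4 KO ATRi replicate 1.

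In RPE-1 all 5 inducible genes were highest in the cells labelled WT cGAS. PSMB9 had 44.6 and 38.8 CPM in WT cGAS against 4.14 and 5.14 CPM in WT, PSMB8 had 163 and 153 against 61.3 and 59.6 CPM, and PSMB10 had 40.4 and 35.3 against 18.2 and 19.2 CPM. PSME1 had 235 and 213 CPM in WT cGAS against 111 and 110.4 CPM in WT, and PSME2 had 219.6 and 213 against 95.4 and 94.4 CPM. The rises were 3.16 ± 0.12 for PSMB9, 1.38 ± 0.06 for PSMB8, 1.19 ± 0.05 for PSME2, 1.01 ± 0.05 for PSME1 and 1.01 ± 0.09 for PSMB10. The largest edgeR adjusted p was 1.94e-08. WT replicate 2, the library with 100 cGAS counts, had more PSMB9 and PSMB10 than replicate 1 (5.14 against 4.14 and 19.2 against 18.2 CPM). It had slightly less PSMB8, PSME1 and PSME2 (59.6 against 61.3, 110.4 against 111 and 94.4 against 95.4 CPM). The part of the cGAS reads in these levels was not tested. Of all 46, 14 rose and 9 fell, against 29.8% and 30% of all genes, and on FPKM 23 rose and 2 fell, against 30.8% and 13.8%. PSMA6, an alpha subunit, rose by 0.75 ± 0.04, with 185 and 186 CPM in WT cGAS against 111 and 109 CPM in WT. PSMA4 (0.34 ± 0.05), PSMC4 (0.25 ± 0.05) and PSMB7 (0.38 ± 0.04) also rose. PSMD2 fell (-0.49 ± 0.04), and PSMB5 (-0.32 ± 0.05), PSMD1 (-0.32 ± 0.04) and PSMG1 (-0.37 ± 0.09) fell on counts, with no call on FPKM for PSMB5, PSMD1 or PSMG1. PSMF1, at -0.12 ± 0.05, lost its call on leaving out any of the 4 libraries and lay at 0.12 on FPKM.

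The p53 KO in RPE-1 was compared with the same WT libraries. PSMB9 had 18.2 and 16.7 CPM in p53 KO against 4.14 and 5.14 CPM in WT, PSMB8 94.4 and 83.7 against 61.3 and 59.6 CPM, and PSME1 158 and 151 against 111 and 110.4 CPM. PSMB9 rose by 1.90 ± 0.14, PSMB8 by 0.56 ± 0.06, PSME2 by 0.51 ± 0.05 and PSME1 by 0.48 ± 0.05 (edgeR adjusted p = 1.01e-09, 3.82e-07, 2.52e-08 and 2.14e-07), while PSMB10 was at 0.10 ± 0.10. MB21D1 stayed at 8 and 6 counts in these cells. Of the 41 other members 28 rose, 4 fell and 9 did not pass. Of all 46, 32 rose and 4 fell, against 34.2% and 32.5% of all genes, and on FPKM 41 rose and 0 fell, against 41.6% and 12.3%. PSMD12 (0.76 ± 0.06), PSMA2 (0.64 ± 0.05) and PSMC4 (0.63 ± 0.05) rose most among the 41. PSMD12 had 139 and 142 CPM in p53 KO against 87.8 and 78.7 CPM in WT. PSMB6 rose by 0.32 ± 0.05 and PSMB7 by 0.41 ± 0.04. PSMB5, PSMD5, PSMD1 and PSME3 fell on counts (-0.23, -0.31, -0.27 and -0.10) but lay at 0.0534, 0.137, 0.01975 and 0.154 on FPKM. The PSME3 call was lost without either WT library or p53 KO replicate 1, and that of PSME4 (0.15 ± 0.05) without WT replicate 2 or p53 KO replicate 1.

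**Figure D4:**
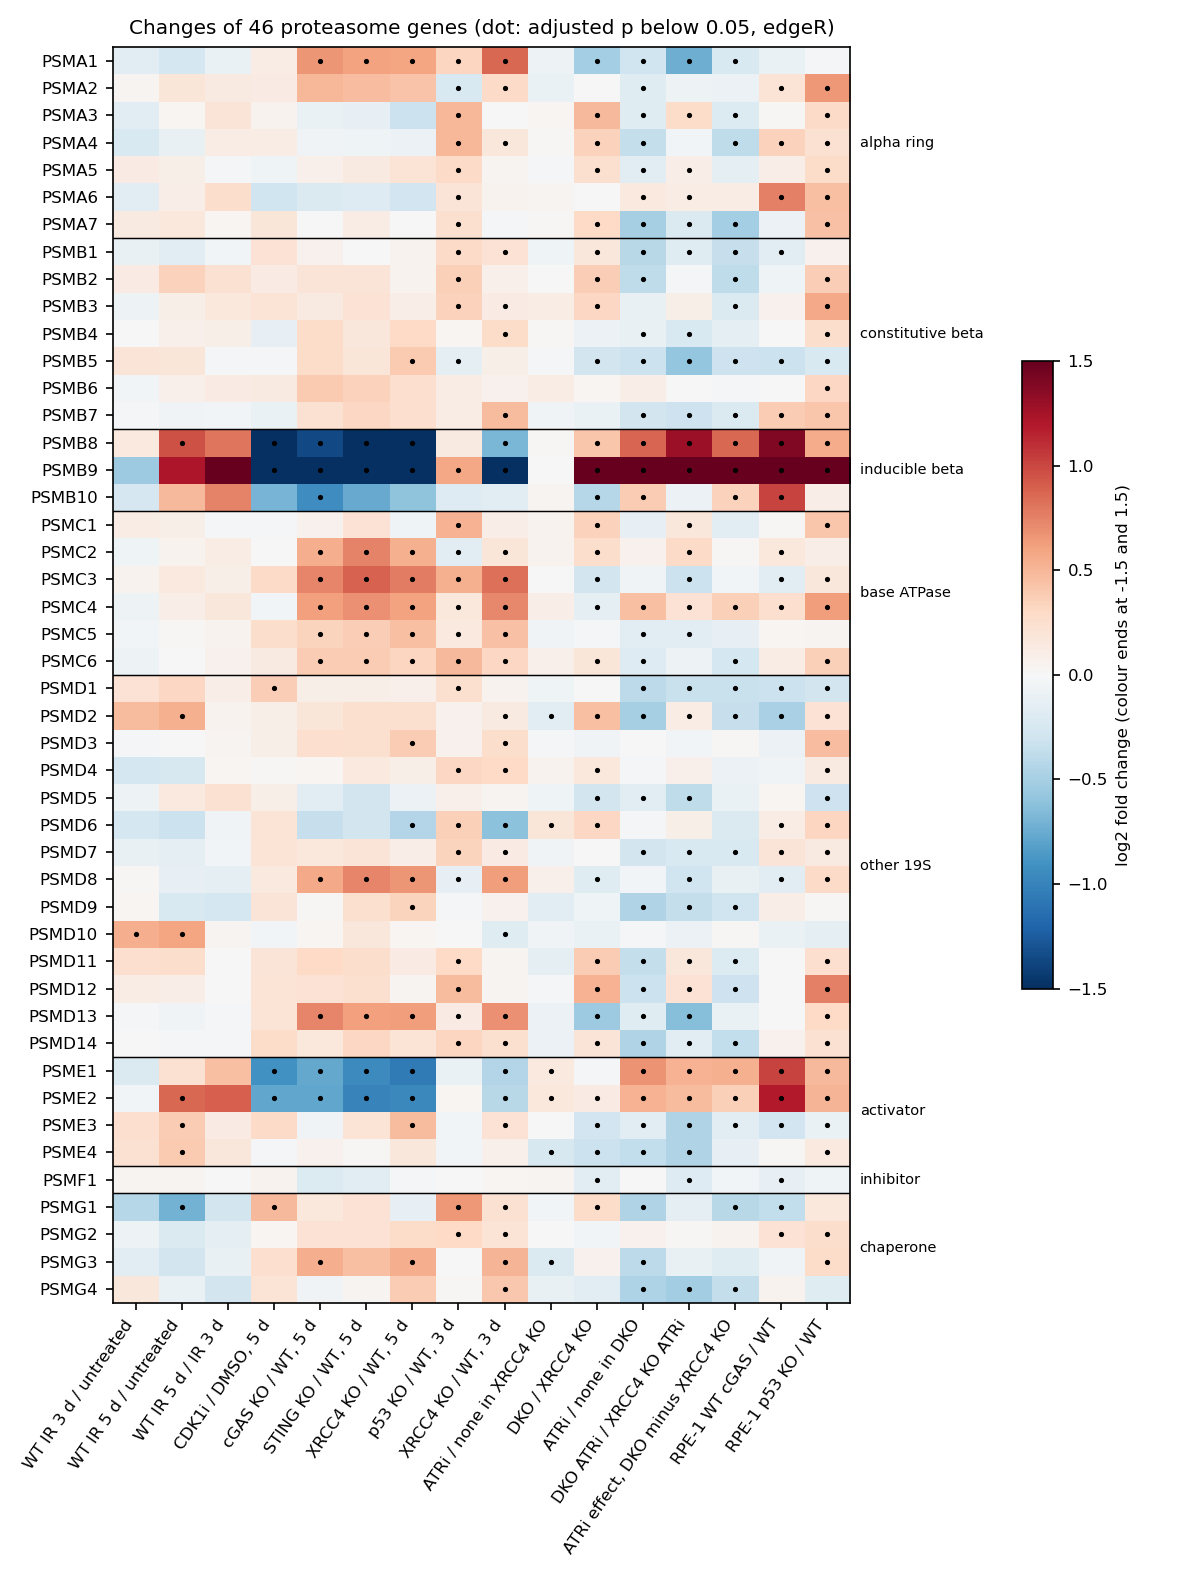
Log2 fold change of each of the 46 genes (rows, by role) in 15 comparisons and in the difference of ATRi effects (columns), from the count fit; colour ends at -1.5 and 1.5, and a dot marks an edgeR adjusted p below 0.05. PSMB8, PSMB9, PSME1 and PSME2 form the strongest rows, blue with CDK1i and in the cGAS, STING and XRCC4 knockouts and red with ATRi in the DKO and in RPE-1 WT cGAS; the sign of many pale constitutive cells turns on the FPKM scale.

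Set against the subunit it replaces, each inducible subunit was the minor mRNA in every group. With 2 libraries a group an exact permutation test cannot go below p = 0.333, so these FPKM ratios are a description. PSMB9 was 1.16 and 0.882% of PSMB6 in cGAS KO, 1.27 and 0.297% in STING KO, 0.206 and 0.283% in XRCC4 KO and 0.459 and 0.959% with CDK1i, against 22.8 and 9.94% in WT at 5 days. It was 20.1 and 17.9% in the DKO with ATRi against 6.89 and 7.02% without it, and 0.666 and 0.973% in XRCC4 KO with ATRi against 1.61 and 0.829% without it. In RPE-1 it was 43.7 and 34.9% in WT cGAS and 14.4 and 12.1% in p53 KO, against 3.56 and 5.19% in WT. For ATRi in XRCC4 KO the groups overlapped.

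PSMB8 relative to PSMB5 ran lower and higher in the same groups. It was 11.6 and 11% in cGAS KO, 11.04 and 8.91% in STING KO, 5.85 and 6.34% in XRCC4 KO and 10.9 and 12.6% with CDK1i, against 44.7 and 24.2% in WT at 5 days. It was 40.4 and 40.3% in the DKO with ATRi against 17.8 and 17.8% without it, and 67.96 and 69.6% in RPE-1 WT cGAS against 22.9 and 20.9% in WT. PSMB10 relative to PSMB7 moved least, from 13.8 and 14.1% in the DKO, its lowest group, to 40.01 and 27.7% in WT at 5 days, its highest. The 3 inducible subunits together made up 31.7 and 29.9% of the summed FPKM of the 6 exchangeable subunits in RPE-1 WT cGAS, 19.2 and 17.01% in p53 KO and 14.2 and 13.8% in WT. In MCF10A this share was 9.11 and 8.68% in XRCC4 KO at 5 days against 27.6 and 18.1% in WT, and 21.97 and 21.01% in the DKO with ATRi against 12.2 and 12.2% without it.

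PA28 can be set beside PSME3 in the same way. PSME2 was 459.9 and 459% of PSME3 in RPE-1 WT cGAS and 229.8 and 212% in p53 KO, against 154 and 149% in WT. In MCF10A it was 58.7 and 73.95% in XRCC4 KO against 223 and 134% in WT at 5 days, and 213 and 190.1% in the DKO with ATRi against 127 and 117% without it. PSME1 was 317 and 299.7% of PSME3 in RPE-1 WT cGAS against 117 and 112% in WT. PSME1 and PSME2 both lay above PSME3 in all 6 RPE-1 libraries, and below it in all 6 XRCC4 KO libraries and in both libraries of STING KO and of CDK1i.

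**Figure D5:**
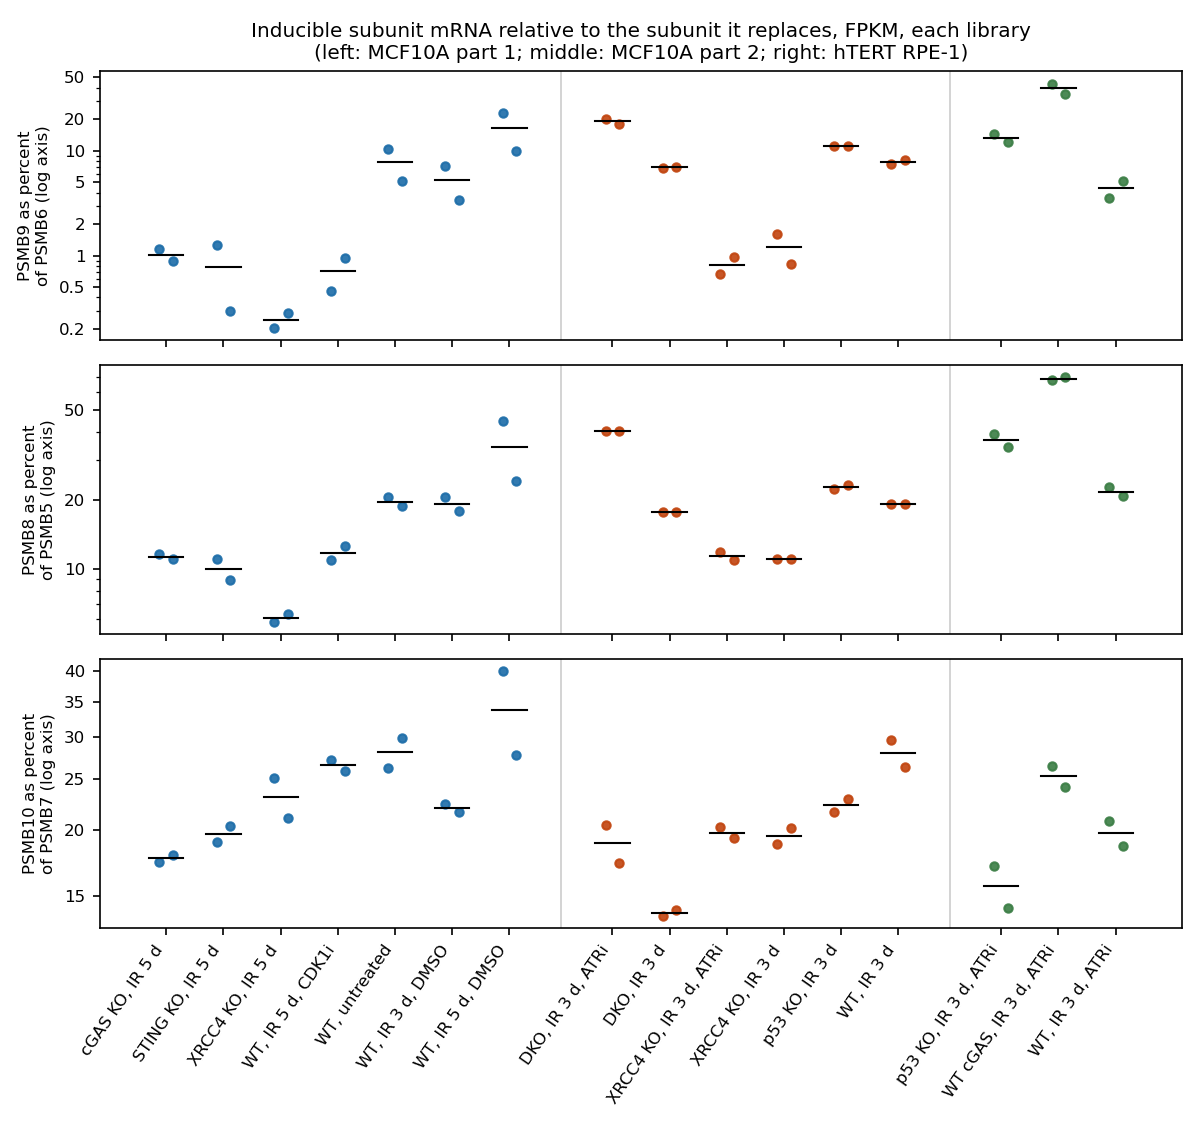
FPKM of PSMB9 as a percent of PSMB6, PSMB8 of PSMB5 and PSMB10 of PSMB7 (log axes) in each library (points) with the group mean (line). PSMB9 ranges from 0.206% of PSMB6 in XRCC4 KO at 5 days to 43.7% in RPE-1 WT cGAS, and PSMB8 from 5.85% to 69.6% of PSMB5.

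The genes that supply peptides to MHC class I were followed as a list of 9: TAP1, TAP2, TAPBP, ERAP1, ERAP2, B2M, CALR, NLRC5 and IRF1. All 9 were tested in each part. In WT 6 rose and 0 fell at 5 days over untreated, against 15.1% and 14.3% of all genes. The median log2 change was 0.93 beside 0.00 over all genes. At 3 days over untreated 0 rose and 0 fell, against 3.65% and 2.87% of all genes. With CDK1i and in cGAS, STING and XRCC4 KO at 5 days 7 fell and 0 rose in each, with medians of -1.40, -1.23, -1.33 and -1.48. Of all genes 7.37%, 6.88%, 7.73% and 12.4% fell in the same order, and 4.73%, 6.65%, 7.43% and 12.4% rose. TAP1 fell in cGAS KO (-1.39 ± 0.34), and NLRC5, a transactivator of class I genes, fell in XRCC4 KO (-4.43 ± 0.48). In XRCC4 KO at 3 days 7 fell and 1 rose (median -0.69), against 27.5% and 28.6% of all genes. With ATRi in the DKO 8 rose and 0 fell (median 0.64), against 26.1% and 32.4% of all genes. With ATRi in XRCC4 KO 2 rose and 0 fell (median 0.11), against 6.67% and 10.3%. IRF1 rose by 1.20 ± 0.07 in the DKO, against a change of 0.12 ± 0.09 in XRCC4 KO. The difference of the 2 ATRi effects passed for 7 of the 9, all higher in the DKO, against 13% of all genes higher and 21% lower.

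TAP1 did not follow PSMB9 everywhere, although the pair share an intergenic region. In p53 KO MCF10A cells TAP1 fell (-0.77 ± 0.05) while PSMB9 rose (0.58 ± 0.12), and in the DKO against XRCC4 KO TAP1 fell (-0.61 ± 0.05) while PSMB9 rose (2.90 ± 0.22). In the second of these NLRC5 (1.5 ± 0.17) and IRF1 (0.60 ± 0.08) rose. The class I list as a whole was split there, with 4 up and 4 down, against 32.2% and 32.7% of all genes. In p53 KO 1 was up and 4 were down, against 25.9% and 27%. In the DKO over XRCC4 KO with ATRi 7 rose and 1 fell (median 1.02), against 35.7% and 36.1% of all genes. In RPE-1 WT cGAS 8 rose and 0 fell (median 1.66), against 29.8% and 30% of all genes. In RPE-1 p53 KO 6 rose and 2 fell (median 0.80), against 34.2% and 32.5%. TAP1 was at 2.77 ± 0.06 in WT cGAS and 1.15 ± 0.06 in p53 KO.

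The regulators and shuttle factors of the proteasome, 17 genes of which 16 were tested, held genes that went both ways. They include NFE2L1, which drives proteasome genes when the protease is inhibited, its activating factors DDI2 and NGLY1, the core assembly factor POMP, and the shuttles RAD23B, UBQLN1 and UBQLN2. Their median log2 change lay between -0.16 and 0.16 in all 16 contrasts. In MCF10A at 5 days 1 rose and 5 fell over untreated, against 15.1% and 14.3% of all genes. At 3 days 0 rose and 3 fell, against 3.65% and 2.87%. With CDK1i 1 rose, in cGAS KO 0, in STING KO 2 and in XRCC4 KO at 5 days 2, and 0 fell in each. Of all genes 4.73%, 6.65%, 7.43% and 12.4% rose in the same order, and 7.37%, 6.88%, 7.73% and 12.4% fell. In XRCC4 KO at 3 days 7 rose and 6 fell, beside 28.6% and 27.5% of all genes, and in p53 KO 9 and 2, beside 25.9% and 27%. In the DKO against XRCC4 KO 8 rose and 4 fell, beside 32.2% and 32.7%, and with ATRi in the DKO 2 and 8, beside 26.1% and 32.4%. Under ATRi 2 rose and 6 fell in the DKO against XRCC4 KO, beside 35.7% and 36.1%. In the difference of ATRi effects 1 was higher and 7 were lower, beside 13% and 21%. With ATRi in XRCC4 KO 0 passed in either direction, beside 6.67% and 10.3%. In RPE-1 3 rose and 3 fell in WT cGAS and 7 and 7 in p53 KO, beside 29.8% and 30% and 34.2% and 32.5% of all genes. POMP rose in XRCC4 KO at 5 days (0.59 ± 0.16) and 3 days (0.61 ± 0.04), and fell with ATRi in the DKO (-0.25 ± 0.04). NFE2L1 fell in XRCC4 KO at 3 days (-0.38 ± 0.04) and did not pass at 5 days (0.34 ± 0.23).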

How the data were processed

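Poly-A RNA was measured in 32 libraries, and all 32 columns of the deposited tables were used. The authors deposited estimated counts per gene, of which 96 to 97.3% per library were whole, and FPKM from Cuffnorm. STAR, Cuffnorm, DESeq2, bcl2fastq and FastQC are named, with hg19 and no versions, per the submitters' processing notes. Here estimated counts were rounded and tested with edgeR 4.0.16 (R 4.3.3; TMM, filterByExpr, glmQLFit with robust dispersion, glmQLFTest, two-sided), in 1 fit for each of the 3 parts. Calls are Benjamini-Hochberg adjusted p below 0.05 over the 15190, 16632 and 15469 genes tested in parts 1, 2 and 3, and ± is a standard error. DESeq2 1.42.0, limma 3.58.1 on log2(FPKM + 1), and other settings were alternatives; the older quasi-likelihood setting was added after seeing the data. The fits were also run on simulated counts with the same spread for all genes and groups of a part, which cannot test them on groups of unequal spread. Depth was 5590061 to 18585999 counts per library, and intervals cover counting error only. Named genes were the 5 inducible genes, PSMB5, PSMB6, PSMB7, PSME3, PSME4 and PSMF1, and up to 3 other called members with the largest change per comparison and direction; further members were named after their values were seen. Members and lists were chosen with earlier results of these data known. The level of 1 targeted gene and a few genes of the lists and markers are not reported here, and counts and medians leave those list genes out.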

Additional observations from a re-analysis of the deposited data

Results flagged for a closer look

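The effect of ATRi differed between the DKO and XRCC4 KO for 26 of 46 members by the test of the difference itself (edgeR, adjusted over all genes). Of these 6 were higher and 20 lower in the DKO, against 13% and 21% of all genes. The 12 members below are named ones that passed, so that all 12 differ was set by the choice. The log2 effect in the DKO minus that in XRCC4 KO was 1.56 for PSMB9, 0.87 for PSMB8, 0.53 for PSME1, 0.36 for PSME2 and 0.35 for PSMB10. PSMC4, a base ATPase, had a difference of 0.35. The differences of PSMA7 (-0.51), PSMG1 (-0.41), PSMB2 (-0.38), PSMB5 (-0.30), PSMB7 (-0.22) and PSME3 (-0.16) were lower in the DKO on counts. On FPKM, PSMB10 (0.35), PSMB5 (-0.12), PSMB7 (-0.05), PSME3 (-0.16), PSMG1 (-0.24) and PSMB2 (-0.17) kept their sign and did not pass. The PSME3 difference also did not pass without XRCC4 KO replicate 1, either DKO library or DKO ATRi replicate 1.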

How the results depend on the processing

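None of the called inducible genes turned its direction in any setting. The numbers of members called are given with those of all genes tested in brackets. At 3 days over untreated 1 member was called (991 of 15190). No filter (783 of 31690), limma on FPKM (415 of 15190) and the 2 groups alone (1 of 15170) called 0. DESeq2 called 2 (1353 of 15190). At 5 days over untreated (7) it was 3 with limma and 1 with the 2 groups alone (1 to 8). Between 5 and 3 days 0 were called (40 of 15190), 1 with no filter (106 of 31690) and 2 with DESeq2 (431 of 15190). In each of these comparisons the number also changed on leaving out some single libraries. With CDK1i (6) it was 0 with the 2 groups alone (2 to 5), in cGAS KO (14) 4 to 10, in STING KO (12) 7 with the 2 groups alone (9 to 11), and in XRCC4 KO at 5 days (18) 9 with limma (9 to 13). With ATRi in XRCC4 KO 6 were called (2831 of 16632). DESeq2 called 2 (1651 of 16632), limma 0 (809 of 16632) and the 2 groups alone 3 (2230 of 16547). With ATRi in the DKO 34 were called (9729 of 16632), and 19 with limma (6605 of 16632). For the difference of ATRi effects 26 were called (5662 of 16632), 17 with DESeq2 (3663 of 16632) and 7 with limma (2776 of 16632). The libraries' numbers state no pairing. Their deviations correlated at 0.245 to 0.439 among the WT groups of part 1 and at -0.265 to 0.116 elsewhere in it. A replicate block called 2 members at 3 days over untreated (1077 of 15190) and 9 at 5 days over untreated (4569 of 15190). It called 2 between 5 and 3 days (190 of 15190) and 5 with CDK1i (2082 of 15190), where PSMD1 lost its call (edgeR adjusted p = 0.054). On FPKM 11 named calls turned: PSMB5 0.00013, PSME3 0.0633 and PSMF1 0.0358 in the DKO; PSMB7 0.136, PSME4 0.0334 and PSMF1 0.273 in the DKO with ATRi; PSMF1 0.12 in RPE-1 WT cGAS; and PSMB5 0.0534, PSME3 0.154, PSMD5 0.137 and PSMD1 0.01975 in RPE-1 p53 KO. The cause was not tested. Taken from CPM, against FPKM, the log2 change of PSMB8/PSMB5 was -0.78 against -0.80 in XRCC4 KO at 3 days, 0.70 against 0.69 in the DKO and 1.20 against 1.18 with ATRi in the DKO. That of PSMB10/PSMB7 was -0.34 against -0.48 in the DKO, 0.66 against 0.44 with ATRi in it, 0.63 against 0.36 in RPE-1 WT cGAS and 0.24 against -0.07 for the DKO over XRCC4 KO with ATRi, where its sign turned. That of PSME1/PSME3 was 0.14 against 0.05 with ATRi in XRCC4 KO, 0.28 against 0.17 in the DKO and 1.30 against 1.43 in WT cGAS, and that of PSME2/PSME3 0.16 against 0.03 with ATRi in XRCC4 KO, 0.93 against 1.05 for the DKO over XRCC4 KO with ATRi and 1.48 against 1.60 in WT cGAS. With 1 and 2 counts, PSMB9 in XRCC4 KO at 5 days is at the limit of depth.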
